A study of Mus musculus with 20 samples.

Results

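Ramp1, Gfra4, Syk, Eva1b, Mdfi, Diras2, Atp9a and Padi2 are 8 of the 27911 genes measured in ATDC5 clones with and without the catalytic domain of Kmt2d. They were chosen by name because they stood higher in Kmt2d-/- than in Kmt2d+/+ clones in these same libraries. Their difference between genotypes is thus given as a description without a test. Their day effects and the interaction use the same values, so the p-values of these are descriptions as well. The question was which of the 8 genes were already on before differentiation and in both mutant clones. The table held a row for each of the 8, and all 8 passed the filter on low counts, which a gene high in the mutant clones alone can pass.

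ATDC5 is an established mouse line of chondrogenic cells that form cartilage matrix in culture. Polyadenylated RNA was sequenced from 3 Kmt2d+/+ and 2 Kmt2d-/- ATDC5 clones, each at day 0 (undifferentiated, in standard growth medium) and after 7 days in medium with insulin, transferrin, selenium, ascorbic acid and beta-glycerophosphate. The mutant clones carry deletions of the SET domain on both alleles of Kmt2d. A clone is a separate clonal line that gave 1 library a day, each run on 2 flow cells and summed here. The p-values thus measure the spread between clones within a group, and the main fit leaves out that each clone was sampled at both days. Genotype cannot be told apart from other differences between these few clones.

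Kmt2d encodes a histone methyltransferase that places monomethylation on lysine 4 of histone H3, mainly at enhancers, and variants that disrupt it cause Kabuki syndrome, a disorder with reduced skeletal growth. The 8 genes belong to no common pathway. Gfra4 and Ramp1 are parts of cell surface receptors, Syk and Diras2 are intracellular signalling proteins, Eva1b and Atp9a are membrane proteins, Mdfi binds transcription factors, and Padi2 modifies proteins. Syk is best known from blood cells, and Gfra4, Ramp1 and Diras2 from neural cells.

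Libraries held 35792773 to 66237188 counts, and 3 counts, taken as the floor, equal 0.0838 CPM (counts scaled to a common library size) in the shallowest. Kmt2d itself stood between 113 and 211 CPM in the 10 libraries, and counts of the whole gene do not measure the SET domain deletion, so this checks nothing about the labels. The 2 flow-cell runs of a mutant library gave levels of the 8 genes that were 1.11-fold apart in the median and 1.62-fold at most, over 24 values with 100 counts or more. Values under 100 counts were all at day 0. They were 1.14-fold (Atp9a in clone 1) to 4.69-fold (Mdfi in clone 2) apart, and Ramp1 in clone 2 had 0 and 4 counts. Padi2 in clone 1 stood at 1.37 CPM in run 1 and 0.986 CPM in run 2, on either side of 1 CPM. Mesenchymal markers were abundant, led by Col1a2 at 13954 CPM or more and Col1a1 at 7810 CPM or more, although Thy1 stayed under 1 CPM. Epithelial markers, led by Cdh1 and Krt5, summed to 0.286 to 2.08 CPM in wild-type and 0.504 to 1.29 CPM in mutant libraries. Chondrocyte markers, led by Col2a1 and Sox9, summed to 31.4 to 114 CPM in Kmt2d+/+ and 989 to 2790 CPM in Kmt2d-/- clones at day 0. At day 7 they summed to 278 to 686 CPM and 22303 to 25744 CPM. The chondrocyte sum thus moved with the genotype and the day, as several of the 8 genes did, and its part in their levels was not tested. In bulk RNA, more expressing cells and more RNA per cell cannot be told apart.

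For Gfra4, Syk and Diras2, 300 bases around a RefSeq start (250 before and 50 after it) are shown, because these genes were above all wild-type clones in both undifferentiated mutant clones at 1 CPM or more, and Syk and Diras2 are neighbours. The sequences are from the RefSeq promoter table of GRCm38.p6, read 5′ to 3′ on the gene's strand, with each CpG dinucleotide in capitals. Gfra4 is at chr2:131043039-131043338 on the minus strand, Syk at chr13:52583187-52583486 on the plus strand and Diras2 at chr13:52530787-52531086 on the minus strand. The RefSeq start lay 264 bases from the GENCODE gene start for Syk and 443 bases from it for Diras2, both inside the gene, and at it for Gfra4. The table held 2 starts each for Gfra4 and Syk, of which the one nearest the gene start was taken.
Gfra4: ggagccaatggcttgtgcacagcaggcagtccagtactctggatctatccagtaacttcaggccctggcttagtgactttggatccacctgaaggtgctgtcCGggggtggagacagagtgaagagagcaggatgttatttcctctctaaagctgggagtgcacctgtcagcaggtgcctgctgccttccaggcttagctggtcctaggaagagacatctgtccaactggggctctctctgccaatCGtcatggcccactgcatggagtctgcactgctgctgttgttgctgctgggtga
Syk: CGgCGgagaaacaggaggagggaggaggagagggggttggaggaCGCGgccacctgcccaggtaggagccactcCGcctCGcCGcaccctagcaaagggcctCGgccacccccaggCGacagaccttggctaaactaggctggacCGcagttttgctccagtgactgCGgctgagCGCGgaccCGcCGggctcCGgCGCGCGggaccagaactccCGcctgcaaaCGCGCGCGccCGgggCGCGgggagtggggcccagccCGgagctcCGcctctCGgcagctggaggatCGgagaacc
Diras2: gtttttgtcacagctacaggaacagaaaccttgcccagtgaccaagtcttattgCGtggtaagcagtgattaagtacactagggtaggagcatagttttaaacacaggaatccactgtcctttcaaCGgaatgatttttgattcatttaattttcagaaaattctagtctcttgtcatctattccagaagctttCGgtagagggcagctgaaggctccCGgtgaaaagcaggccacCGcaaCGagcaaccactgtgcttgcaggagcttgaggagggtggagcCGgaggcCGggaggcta
The 3 windows differ in CpG content. The Syk window held 31 CpG, more than 89.4% of the 32817 promoters in the table, whereas the Gfra4 window held 2 and the Diras2 window 8, against a median of 7. Of the other genes, Ramp1 had 6, Mdfi 8, Eva1b 15, Atp9a 21 and Padi2 22, so the windows ran from CpG-poor to CpG-rich. The Sox-type motifs ACAAAG and AACAAT and the Runx-type motif TGTGGT were searched on both strands. ACAAAG was in the Ramp1 and Mdfi windows (18.7% of all promoters held it), TGTGGT in that of Eva1b (16.8%), and AACAAT in none of the 8 (10.7%). None of the 3 motifs was in the windows printed here.

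At day 0, 4 of the 8 genes stood at 1 CPM or more in both mutant clones, namely Gfra4, Syk, Diras2 and Padi2. Of all 27911 genes, 41.4% did so. Ramp1 and Eva1b were on in clone 1 alone, Atp9a in clone 2 alone, and Mdfi in neither. At day 7 all 8 were on in both mutant clones, as were 42.2% of all genes. Of the 4, Padi2 was also on in all 3 wild-type clones at day 0 and Diras2 in 1, which leaves Gfra4 and Syk as the pair on in both undifferentiated mutant clones and under 1 CPM in every wild-type library. At or above 1 CPM in both mutant clones and under it in all 3 wild-type clones of the same day stood 0.337% of genes at day 0 and 0.351% at day 7, where Ramp1, Eva1b and Mdfi joined Gfra4 and Syk. With a threshold of 2 CPM Padi2 left the 4, and with 0.5 CPM Eva1b and Atp9a joined them.

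At day 0, both mutant clones stood above all 3 wild-type clones for 6 of the 8 genes, all but Mdfi and Padi2, against 18.6% of tested genes. At day 7 this held for 7 of the 8, all but Diras2, against 17.9%. Since the 8 were chosen for this difference, these shares are only the background. For Gfra4, Syk, Eva1b and Diras2, undifferentiated mutant clones were already above every differentiated wild-type clone (19.6% of tested genes). For the first 3 of these, all 4 mutant libraries exceeded all 6 wild-type libraries (5.22%). In the edgeR fit 5 of the 8 passed at day 7 (0.905% of tested genes passed as higher) and 5 at day 0 (1.17%), which repeats the choice and supports nothing.

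**Figure D1:**
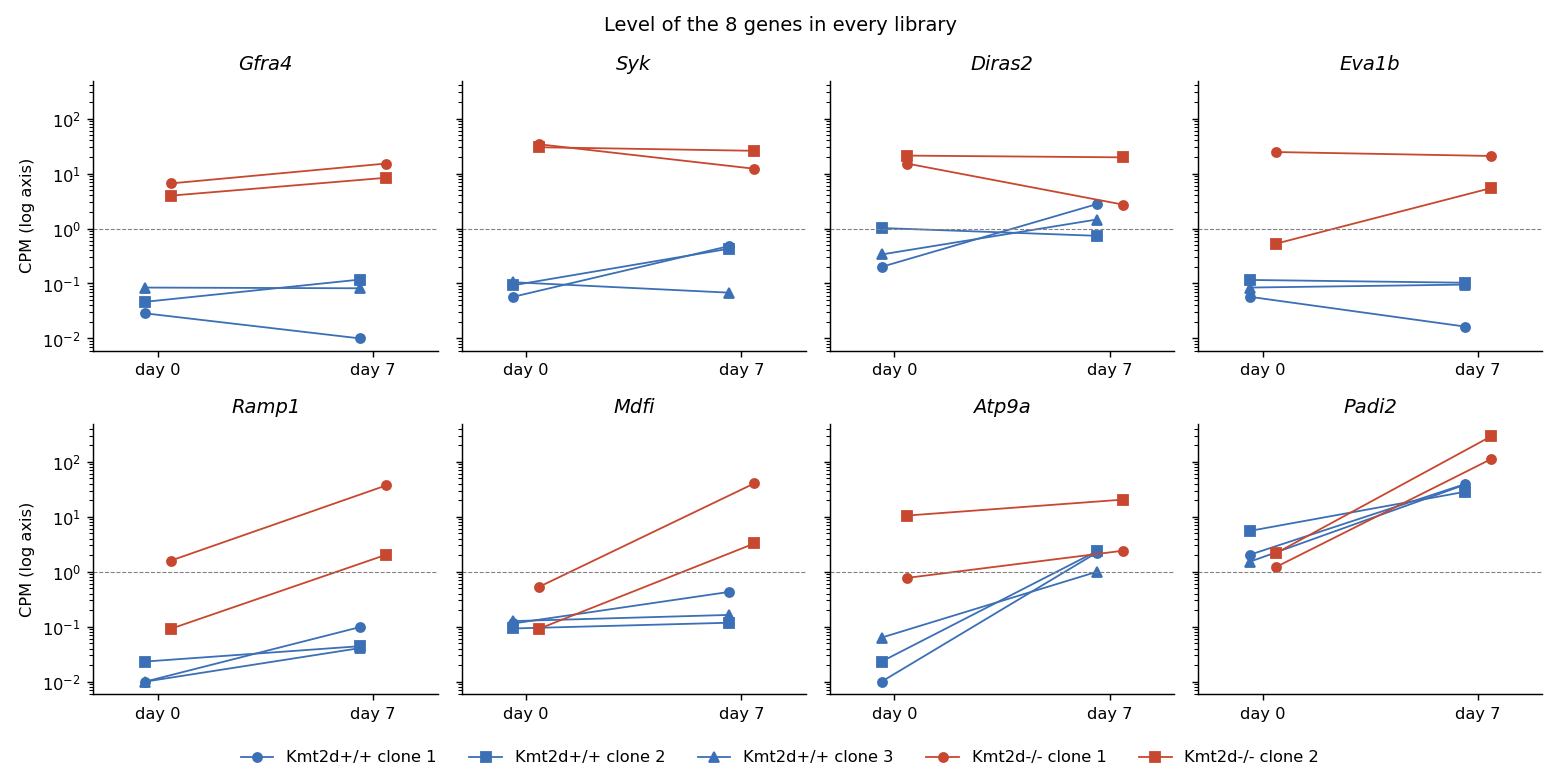
Level of each of the 8 genes in CPM (log axis) at day 0 and day 7, one point per library, with lines joining the libraries of a clone; blue marks the 3 Kmt2d+/+ clones, red the 2 Kmt2d-/- clones, and the dashed line 1 CPM. Values below 0.01 CPM are drawn at 0.01. Red lines lie above all blue ones at both days for Gfra4, Syk, Eva1b, Ramp1 and Atp9a. For Atp9a the lower red point at day 7 is only just above them (2.40 against 2.36 CPM). Red lines start together with the blue ones for Mdfi and Padi2, and 1 red line reaches the blue ones at day 7 for Diras2.

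Gfra4 (ENSMUSG00000027316, chr2:131039632-131043088, GRCm38) encodes the co-receptor through which persephin, a ligand of the GDNF family, signals by the Ret kinase. In the wild-type clones it stood at 0.029, 0.046 and 0.084 CPM at day 0, and at 0, 0.118 and 0.082 CPM at day 7, which is 8 counts or fewer in any library. In mutant clones 1 and 2 it stood at 6.62 and 3.97 CPM at day 0 and at 15.2 and 8.38 CPM at day 7. Both clones were thus on at both days, and no wild-type library came near them. The mutant-to-wild-type difference was 6.53 (SE 0.90) on the log2 scale at day 0 and 7.39 (SE 0.89) at day 7. Clone 1 exceeded clone 2 by 1.67-fold (exact 95% interval 1.37 to 2.03) at day 0 and by 1.82-fold (1.62 to 2.04) at day 7. Intervals of this kind cover counting error only. The difference between day 7 and day 0 in mutant clones, 1.16 on the log2 scale (SE 0.79), missed the threshold (edgeR adjusted p = 0.58).

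No tested partner of Gfra4 passed as higher in the mutant clones. Of 10 family and partner genes, 7 were tested, and Gdnf, the founding ligand of the family, passed as lower at day 7. Gdnf stood at 15.7, 17.2 and 13.9 CPM in the wild-type clones and at 4.56 and 5.01 CPM in the mutant clones at day 7, and these groups did not overlap. Its log2 difference was -1.71 (SE 0.34, edgeR adjusted p = 0.0454), and leaving out any 1 of the 5 clones ended the call, with adjusted p from 0.0671 to 0.212. The signalling receptor Ret ranged from 0.135 to 2.13 CPM over the 10 libraries, and Pspn, the gene of persephin, from 0.029 to 0.275 CPM. Gfra1, the co-receptor for Gdnf, averaged 3.79 CPM (SD 1.37, n = 3) in wild-type and 3.80 CPM (SD 0.81, n = 2) in mutant clones at day 7. Gfra2 varied widely among clones of 1 genotype, from 3.26 to 56.6 CPM in wild-type clones at day 7. Nrtn, another ligand of the family, was above all wild-type clones in both mutant clones at both days and did not pass. At day 7 it stood at 4.02 and 1.43 CPM in mutant clones 1 and 2, and at 1.31 CPM or less in wild-type clones. Such a separation upward held for 18.6% of tested genes at day 0 and 17.9% at day 7.

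Ramp1 (ENSMUSG00000034353, chr1:91179822-91225196) encodes a receptor activity-modifying protein that joins the Calcrl receptor to form the receptor for calcitonin gene-related peptide. It stood at 0, 0.023 and 0 CPM in the wild-type clones at day 0 and at 0.099, 0.044 and 0.041 CPM at day 7. Mutant clone 1 stood at 1.59 CPM at day 0 and 37.1 CPM at day 7, and mutant clone 2 at 0.092 and 2.04 CPM. The clone 2 value at day 0 rests on 4 counts, so before differentiation Ramp1 was on in clone 1 alone. The 2 clones differed by 17.4-fold (exact 95% interval 6.48 to 65.7) at day 0 and 18.2-fold (15.1 to 22.3) at day 7, and the ratio of day 7 to day 0 was 23.3 in clone 1 and 22.2 in clone 2. With 0.5 CPM added to both levels, 0.103% of tested genes differed more between the mutant clones at day 7. The mutant-to-wild-type difference was 6.35 (SE 1.80) at day 0 and 8.29 (SE 1.50) at day 7 on the log2 scale, and 3.19 and 5.01 without mutant clone 1. Without wild-type clone 2 it was 8.42 at day 0. The wild-type clones left had 0 counts there, so the counts set no size for that difference. With all clones, the day 0 difference rests on 1 wild-type count.

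Calcrl, the partner that carries the signal of Ramp1, was higher in the clone with less Ramp1. At day 7 it stood at 0.058 CPM (3 counts) in mutant clone 1 and at 3.76 CPM in clone 2, against 1.18 to 4.82 CPM in wild-type clones. Calca, which encodes the peptide ligand, had 0 counts in all 10 libraries, and Ramp2 and Ramp3, which encode the other modifying proteins, stayed under 2.39 and 1.82 CPM. At day 7 Ramp2 stood at 2.29 and 2.38 CPM in the mutant clones and at 1.32 CPM or less in the wild-type clones. Such a separation upward held for 17.9% of tested genes. Of 9 genes on this list, 5 were tested and 0 passed between genotypes on either day.

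Syk (ENSMUSG00000021457, chr13:52583173-52648792) encodes a cytoplasmic tyrosine kinase that binds phosphorylated immune receptors and related lectin receptors. It stood at 0.057, 0.093 and 0.105 CPM in the wild-type clones at day 0 and at 0.477, 0.428 and 0.068 CPM at day 7. In mutant clones 1 and 2 it stood at 34.1 and 30.1 CPM at day 0 and at 12.2 and 25.9 CPM at day 7. Before differentiation the mutant clones were thus nearly level, at 1.13-fold (exact 95% interval 1.05 to 1.22). With 0.5 CPM added to both levels, 67.5% of tested genes differed more between them. At day 7 clone 2 was 2.12-fold above clone 1. The genotype difference was 8.49 (SE 0.78) on the log2 scale at day 0 and 5.88 (SE 0.67) at day 7. The day effect in mutant clones was -0.75 (SE 0.64, edgeR adjusted p = 0.68) and did not pass.

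Immune cell markers were low where Syk was high. All 8 markers on the list, led by Cd68 and Csf1r, stayed under 1 CPM in every library, and their sum ranged from 0.797 to 1.19 CPM in mutant and from 1.03 to 1.56 CPM in wild-type clones at day 0. At day 7 the sums were 0.635 to 1.14 CPM and 0.736 to 1.43 CPM. Of 13 family and partner genes of Syk, 8 were tested, 0 were higher in mutant clones and 1 was lower. That gene was Zap70, the only other kinase of the Syk family. It had 0 counts in both mutant clones at day 7 and stood at 0.559, 0.369 and 0.927 CPM in the wild-type clones. Taking 3 counts per mutant library as the floor, it was at least 11.0-fold lower (edgeR adjusted p = 0.0390), and each of the 5 clones, when left out, ended the call (adjusted p from 0.0552 to 0.175). At day 0 Zap70 had 2 counts or fewer in each library. Plcg2, a phospholipase that acts after Syk in immune cells, ranged from 17.0 to 131 CPM, while the receptor adaptor Tyrobp had at most 1 count.

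Over all 8 lists of family and partner genes, 51 of 69 genes were tested, and edgeR called 0 as higher and 2 as lower in mutant clones at day 7, where 0.97% of all tested genes passed as lower. At day 0 it called 0 of the 51, while 11 had an unadjusted p under 0.05 and DESeq2 called 4, against 20.2% and 10.6% of all tested genes. Their median log2 difference was -0.44 at day 7 and -0.04 at day 0.

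**Figure D2:**
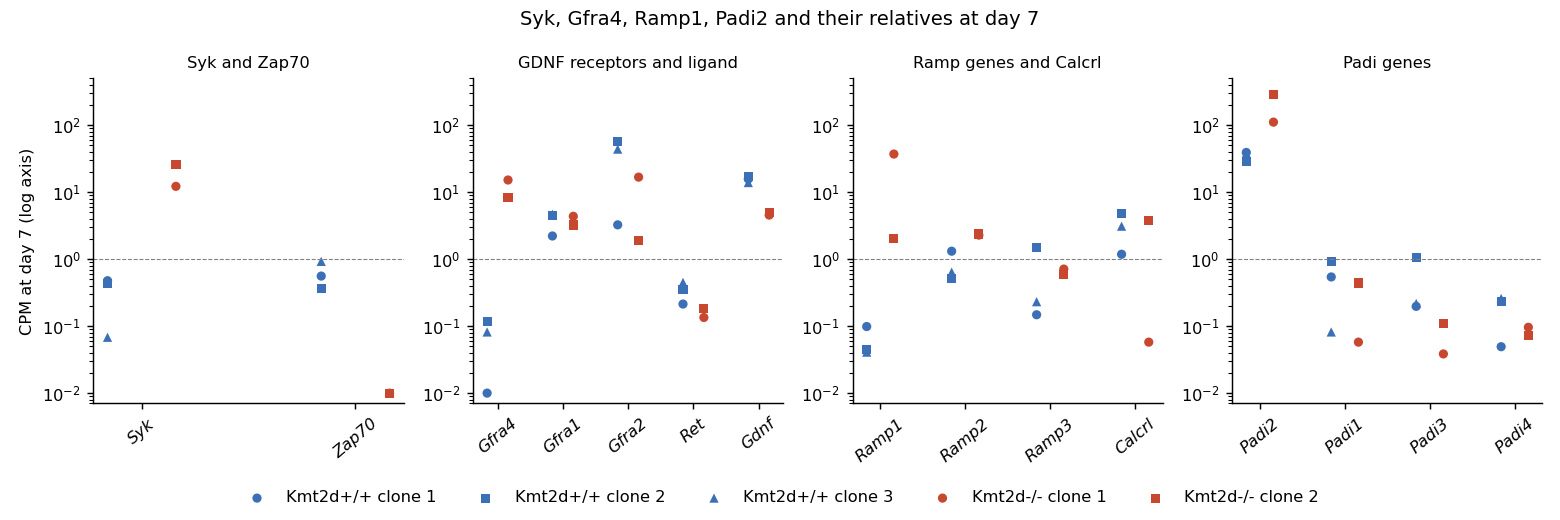
CPM at day 7 (log axis) of Syk, Gfra4, Ramp1 and Padi2 beside relatives and partners, one point per library, blue for Kmt2d+/+ and red for Kmt2d-/- clones, shapes for clone numbers; the dashed line is 1 CPM and 0 is drawn at 0.01. Red points lie above blue ones for the 4 chosen genes and Ramp2, below them for Gdnf, Zap70, Ret and Padi3, and among them for Gfra1. Of the relatives and partners drawn, only Gdnf and Zap70 passed between genotypes.

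Diras2 (ENSMUSG00000047842, chr13:52504380-52531279) encodes a small GTPase of the Ras superfamily found mainly in brain. It stood at 0.200, 1.02 and 0.337 CPM in the wild-type clones and at 15.2 and 21.2 CPM in the mutant clones at day 0. At day 7 the wild-type clones stood at 2.78, 0.737 and 1.46 CPM and mutant clones 1 and 2 at 2.73 and 19.7 CPM. Clone 1 then stood within the wild-type range, just under the highest wild-type clone, and clone 2 stood near its day 0 level. Clone 2 was 1.40-fold above clone 1 at day 0 and 7.22-fold (exact 95% interval 6.05 to 8.66) at day 7. The genotype difference on the log2 scale was 5.11 (SE 0.97) at day 0 and 2.76 (SE 0.88) at day 7, and 4.86 and 0.72 without mutant clone 2. Neither day effect passed, at -0.70 (SE 0.96, edgeR adjusted p = 0.81) in mutant and 1.66 (SE 0.83, adjusted p = 0.26) in wild-type clones. Its 4 relatives and partners were all tested and 0 passed. Its relative Diras1 stayed between 0.070 and 1.02 CPM.

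Syk and Diras2 are adjacent on chromosome 13, on opposite strands. Their starts lie 51.9 kb apart with no protein-coding gene between them. Over the 10 libraries their log2 values correlated with r = 0.916, which describes libraries that share genotype. Genes within 5 Mb on each side had a median log2 difference from the wild-type mean of 0.05 at day 0 and 0.02 at day 7 in mutant clone 1, and of 0.39 and 0.41 in clone 2. Wild-type libraries ran from -0.04 to 0.09, so the region as a whole was higher in clone 2. In clone 1 at day 0, both genes were high and the region was near the wild-type level. The part of the region in the levels of Syk and Diras2 was not tested. Markers of neurons and glia, led by Map2 and Tubb3, summed to 49.3 to 102 CPM in wild-type and 51.1 to 126 CPM in mutant clones at day 0, and to 27.5 to 96.3 CPM and 41.1 to 55.2 CPM at day 7. Of these 9 markers, 4 stayed under 1 CPM in every library. Rbfox3, Snap25 and Sox10 stood at 0.0966 CPM or less, and Olig2 had 0 counts.

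Eva1b (ENSMUSG00000050212, chr4:126147744-126149875) encodes a small membrane protein of the Eva1 family. It stood between 0.016 and 0.116 CPM in all 6 wild-type libraries. Mutant clone 1 stood at 24.6 CPM at day 0 and 20.9 CPM at day 7, while clone 2 stood at 0.527 and 5.43 CPM. Before differentiation clone 1 exceeded clone 2 by 46.7-fold (exact 95% interval 31.0 to 74.0). With 0.5 CPM added to both levels, 0.142% of tested genes differed more between the mutant clones. At day 7 the ratio was 3.85. All 4 mutant libraries were above all 6 wild-type ones, although clone 2 at day 0 was below 1 CPM. The genotype difference was 7.14 (SE 1.44) at day 0 and 7.45 (SE 1.43) at day 7 on the log2 scale, and 2.57 and 6.17 without mutant clone 1. Its relatives Eva1a and Eva1c were both tested and 0 passed.

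Atp9a (ENSMUSG00000027546, chr2:168634438-168742409) encodes a P4-type ATPase of endosomes and the trans-Golgi network. At day 0 it stood at 0, 0.023 and 0.063 CPM in the wild-type clones, at 0.773 CPM in mutant clone 1 and at 10.5 CPM in clone 2. At day 7 the wild-type clones stood at 2.22, 2.36 and 0.995 CPM, mutant clone 1 at 2.40 CPM and clone 2 at 20.5 CPM. Clone 1 was thus level with the upper wild-type clones at day 7, and at day 7 the difference between genotypes came from clone 2. At day 0 clone 1 was also above all wild-type clones. Clone 2 exceeded clone 1 by 13.6-fold (exact 95% interval 9.51 to 20.1) at day 0 and 8.51-fold (7.07 to 10.3) at day 7. The genotype difference was 7.40 (SE 1.45) at day 0 and 2.62 (SE 1.09) at day 7 on the log2 scale, and 4.55 and 0.37 without mutant clone 2. The wild-type clones had 4 counts in all at day 0. The size of the day 0 difference and of the wild-type day effect below is thus uncertain. Atp9a rose with differentiation in wild-type clones, by 5.80 on the log2 scale (SE 1.37, edgeR adjusted p = 0.0474), in 3 of 3 clones. The call was lost without any 1 of the wild-type clones (adjusted p from 0.127 to 0.259) and in flow-cell run 2 alone (0.0837). In the mutant clones the day effect was 1.02 (SE 1.20, adjusted p = 0.78). Of 20 related ATPases and partners, 19 were tested and 0 passed between genotypes. The closest relative, Atp9b, stood between 34.5 and 44.1 CPM throughout.

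Mdfi (ENSMUSG00000032717, chr17:47815328-47834691) encodes an inhibitor of MyoD-family transcription factors. It stood at 0.115, 0.093 and 0.126 CPM in the wild-type clones and at 0.531 and 0.092 CPM in the mutant clones at day 0, so the groups overlapped and it was on in no clone. At day 7 the wild-type clones stood at 0.428, 0.118 and 0.164 CPM and mutant clones 1 and 2 at 40.5 and 3.26 CPM. Both mutant clones were then above all wild-type clones, 12.4-fold apart from each other (exact 95% interval 10.6 to 14.5). The day effect in mutant clones was 6.13 on the log2 scale (SE 1.32, edgeR adjusted p = 0.0672), upward in 2 of 2 clones, and did not pass. With a replicate block for the clone it was 5.87 (adjusted p = 0.00725) and passed. Mdfi was chosen for high mutant values in these libraries, so this call is a description. In wild-type clones the day effect was 1.06 (SE 1.03, adjusted p = 0.57). The genotype difference was 1.46 (SE 1.13) at day 0 and -0.27 there without mutant clone 1, and 6.53 (SE 1.11) at day 7 and 3.78 there without it. Of 7 family and partner genes, 3 were tested and 0 passed. Mdfic, its relative, stood between 46.4 and 104 CPM, and Myod1 and Myog had at most 2 and 0 counts. Skeletal muscle markers, led by Tnnt3 and Acta1, summed to 1.38 to 2.08 CPM in mutant and 0.327 to 0.411 CPM in wild-type clones at day 7. At day 0 the sums were 0.314 to 0.436 CPM and 0.115 to 0.511 CPM. Tnnt3, at 1.98 CPM or less, was the most abundant gene of the list, and Myog and Ckm had 0 counts in all 10 libraries. The part of this list in the level of Mdfi was not tested.

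Padi2 (ENSMUSG00000028927, chr4:140906344-140952586) encodes a peptidylarginine deiminase, which converts arginine in proteins to citrulline. It stood at 1 CPM or more in every wild-type and mutant library, so it was not switched on in the mutant clones. At day 0 it stood at 2.03, 5.52 and 1.52 CPM in wild-type and 1.21 and 2.16 CPM in mutant clones, which overlapped. At day 7 it stood at 39.2, 28.5 and 38.3 CPM and at 111 and 289 CPM, without overlap. Padi2 rose with differentiation in both genotypes. In wild-type clones it rose by 3.54 on the log2 scale (SE 0.55, edgeR adjusted p = 0.0194), in 3 of 3 clones. In mutant clones it rose by 6.89 (SE 0.79, edgeR adjusted p = 0.0170), in 2 of 2. Padi2 was chosen for high mutant values in these libraries, so the mutant call is a description. The first call was lost without wild-type clone 1 (adjusted p = 0.142) or 3 (0.228). The second was lost without wild-type clone 3 (0.0658), mutant clone 1 (0.173) or mutant clone 2 (0.0902). The genotype difference was -0.85 (SE 0.61) at day 0 and 2.50 (SE 0.55) at day 7, and -0.07 at day 0 without wild-type clone 2 and 1.65 at day 7 without mutant clone 2. Its neighbours of the same family, Padi1, Padi3, Padi4 and Padi6, stood at 1.06 CPM or less in all libraries, and of the 3 tested 0 passed. An annotated antisense gene, Gm13031, overlaps Padi2, and the strand setting of the counting is not known from the sources used.

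Over the 7 days, 1 of the 8 genes passed in mutant clones (Padi2, against 1.27% of tested genes) and 2 in wild-type clones (Padi2 and Atp9a, against 5.08%). These contrasts, and the interaction below, use the libraries on which the genes were chosen for high mutant values. Their calls describe the 8 genes and support nothing, also beside the shares of all tested genes. With a replicate block for the clone, Padi2, Mdfi and Ramp1 (4.51, adjusted p = 0.0111, in place of 4.54 and 0.186) passed in mutant clones, so 3 in place of 1. The difference between the day effects of the genotypes passed for none of the 8 in edgeR, as for 0% of tested genes. At an unadjusted p under 0.05 it did for 4 of the 8 and for 568 genes in all. DESeq2 called it for 1 of the 8, Padi2, with an adjusted p of 0.0180, and for 27 genes in all. Per edgeR the estimates ran from -4.78 (SE 1.83) for Atp9a to 5.07 (SE 1.59) for Mdfi on the log2 scale. The size of the Atp9a estimate is uncertain, since its wild-type level at day 0 rests on 4 counts in all.

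**Figure D3:**
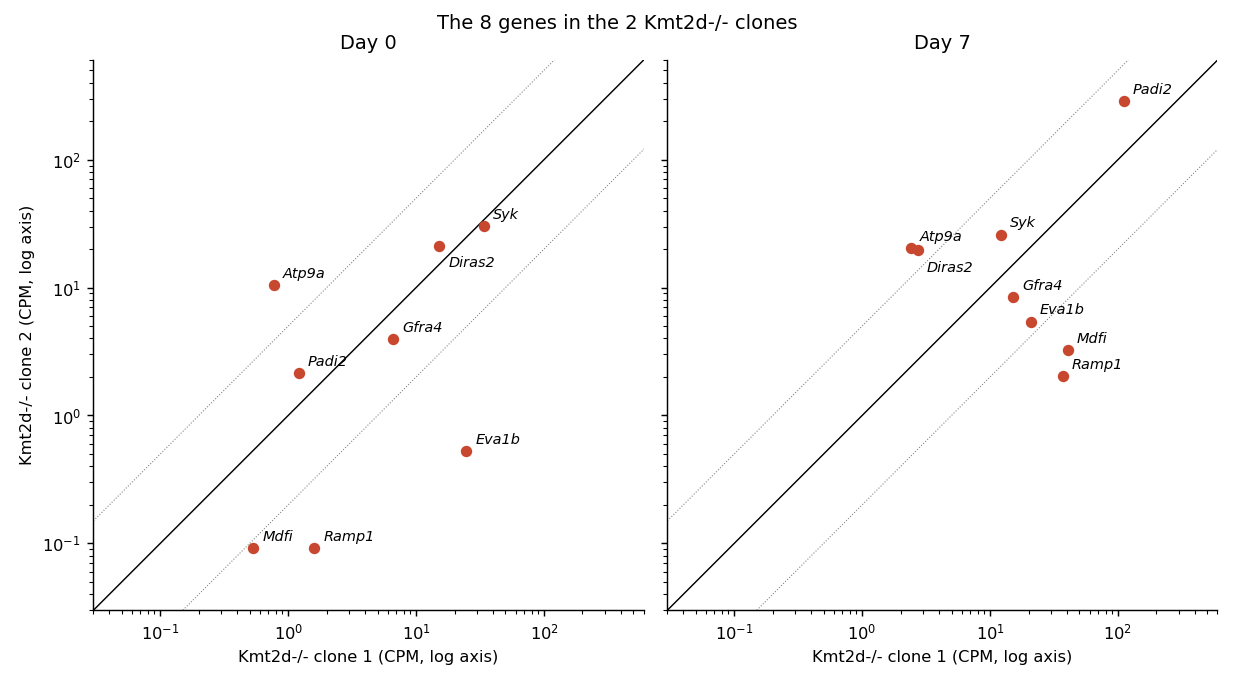
CPM of the 8 genes in Kmt2d-/- clone 1 (horizontal, log axis) against clone 2 (vertical, log axis) at day 0 and day 7; the solid line marks equal levels and the dotted lines 5-fold differences. Gfra4, Syk and Padi2 lie between the dotted lines at both days, Ramp1 and Mdfi lie outside on the clone 1 side, and Atp9a outside on the clone 2 side.

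The 8 genes thus fell into patterns that differed by clone. Ramp1, Gfra4, Eva1b and Mdfi were higher in mutant clone 1 than in clone 2 at both days, Atp9a, Diras2 and Padi2 were higher in clone 2, and Syk changed its order between the days. Over the 10 libraries the closest pair was Ramp1 and Mdfi (r = 0.973), followed by Gfra4 and Syk (0.936), Syk and Diras2 (0.916) and Gfra4 and Eva1b (0.906). Per kilobase of exon the order in undifferentiated mutant clones was Eva1b, Diras2, Syk, Gfra4, Atp9a, Padi2, Ramp1 and Mdfi, from 6.48 to 0.101 CPM per kb. Diras2 at 3.80 and Syk at 3.43 CPM per kb were close beside the spread of the clones, and Eva1b led through clone 1 alone. In differentiated mutant clones Padi2 led with 39.9 CPM per kb, and the other 7 lay between 1.93 and 7.08.

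For each gene the 3 most similar genes by Pearson's r of log2(CPM + 0.5) over the 10 libraries were taken from the tested genes. Tmem121 (r = 0.989), Fkbp2 and Erg28 were most like Gfra4. Dmwd (0.985), Zfyve26 and Ap2s1 were most like Syk, and Zfp839 (0.956), Ptpdc1 and Nfs1 most like Diras2. Jag2 (0.971), Ephx2 and Ube2m followed Eva1b. Lrrc4 (0.980), Frem2 and Tmem254c followed Ramp1, and Tspan8 (0.984), Kcns1 and Eln, the elastin gene, followed Mdfi. Aph1c (0.988), Scnm1 and Rsbn1l were most like Atp9a, and Matn1, a cartilage matrilin (0.977), Gm13532 and Dact3 most like Padi2. Padi2 was thus the gene of the 8 whose nearest profile was that of a cartilage matrix gene. Matn1 was, however, 1 of 103 tested genes with r of 0.9 or more with Padi2. These coefficients describe 10 libraries that share genotype and day.

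Few genes of the table were off in every wild-type and on in every mutant library. Under 0.5 CPM in all 6 wild-type and at 1 CPM or more in all 4 mutant libraries were 7 of 27911 genes (0.0251%), and Syk and Gfra4 had the highest minimum among them, 12.2 and 3.97 CPM. The others were Hoxd13, Tmem121, Tcf24, Gm5662 and Crip2, named here after their values were seen. The reverse pattern held for 25 genes. With limits of 0.25 and 2 CPM, 3 genes remained in the first direction, Gfra4 the only one of the 8, and 4 in the reverse.

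Genes near the 8, which the choice did not use, were tested between genotypes. The 5 nearest protein-coding genes on each side gave 70 distinct genes, of which 55 were tested. In edgeR 1 of the 55 passed as higher in mutant clones at each day, against 0.905% of all tested genes at day 7 and 1.17% at day 0, and 0 passed as lower. At each day 13 had an unadjusted p under 0.05 and DESeq2 called 6, and over all tested genes these shares were 19.9% and 10.3% at day 7 and 20.2% and 10.6% at day 0. Their median log2 difference was 0.18 at day 7 and 0.15 at day 0, against -0.02 and 0.01 over all tested genes. The gene that passed was Sptlc1, a subunit of serine palmitoyltransferase, 794 kb from the start of Syk. It stood at 34.1, 42.2 and 31.3 CPM in wild-type and 64.2 and 75.4 CPM in mutant clones at day 0, and at 28.3, 30.3 and 24.95 CPM and 52.3 and 53.1 CPM at day 7. The groups did not overlap, and the log2 difference was 0.96 (SE 0.17, edgeR adjusted p = 0.0330) at day 0 and 0.92 (SE 0.17, adjusted p = 0.0402) at day 7. Each clone except wild-type clone 2, when left out, ended both calls, with adjusted p from 0.105 to 0.213 at day 0 and from 0.0984 to 0.211 at day 7. Within 500 kb of the starts, 88 of 109 genes were tested and 0 passed in edgeR at either day, with 13 at day 7 and 19 at day 0 at an unadjusted p under 0.05, and 4 and 10 called by DESeq2, beside the same shares over all tested genes.

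The nearest genes on each side stood as follows. Beside Syk and Diras2, Gadd45g averaged 88.9 CPM (SD 10.4, n = 3) in wild-type and 154 CPM (SD 41.4, n = 2) in mutant clones at day 0 (edgeR adjusted p = 0.154), and Auh differed by 0.39 (SE 0.23) on the log2 scale. Beside Gfra4, Atrn was 0.55 higher at day 7 on the log2 scale (edgeR adjusted p = 0.0827) and Adam33 was near 0. Beside Atp9a, Nfatc2, a calcium-dependent transcription factor, stood at 9.74, 3.46 and 11.6 CPM in wild-type and 1.40 and 1.72 CPM in mutant clones at day 0. That difference ran the other way, at -2.40 (SE 0.83, adjusted p = 0.149), and did not pass, and Sall4 on the other side had 0 counts throughout. Rbm44 and Ube2f beside Ramp1, Stk40 and Sh3d21 beside Eva1b, Tfeb and Foxp4 beside Mdfi, and Padi1 and Sdhb beside Padi2 did not pass at either day or, for Rbm44, were too low to test. A regional median log2 difference from the wild-type mean was taken over expressed genes within 5 Mb on each side. In mutant libraries it was 0.22 to 0.31 around Gfra4 and 0.31 to 0.40 around Atp9a. Around Mdfi it was 0.20 at day 0 and 0.31 at day 7 in mutant clone 1, and 0.04 and 0.03 in clone 2. Mutant libraries lay between -0.09 and 0.05 around Ramp1, Eva1b and Padi2. Wild-type libraries ran from -0.10 to 0.03 around Gfra4, -0.12 to 0.10 around Atp9a and -0.08 to 0.12 around Mdfi. Around Ramp1, Eva1b and Padi2 they ran from -0.34 to 0.20, -0.29 to 0.19 and -0.36 to 0.21. Gfra4 itself differed by 6.53 at day 0 and 7.39 at day 7 in the edgeR fit. Around Atp9a the regional shift was 0.38 in mutant clone 1 at day 7. Atp9a itself, with clone 2 left out, differed by 0.37 in the edgeR fit. Regional values add 1 CPM before the logarithm and the edgeR differences do not, so they are not on one scale. The part of a regional shift in the level of any of the 8 genes was not tested.

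**Figure D4:**
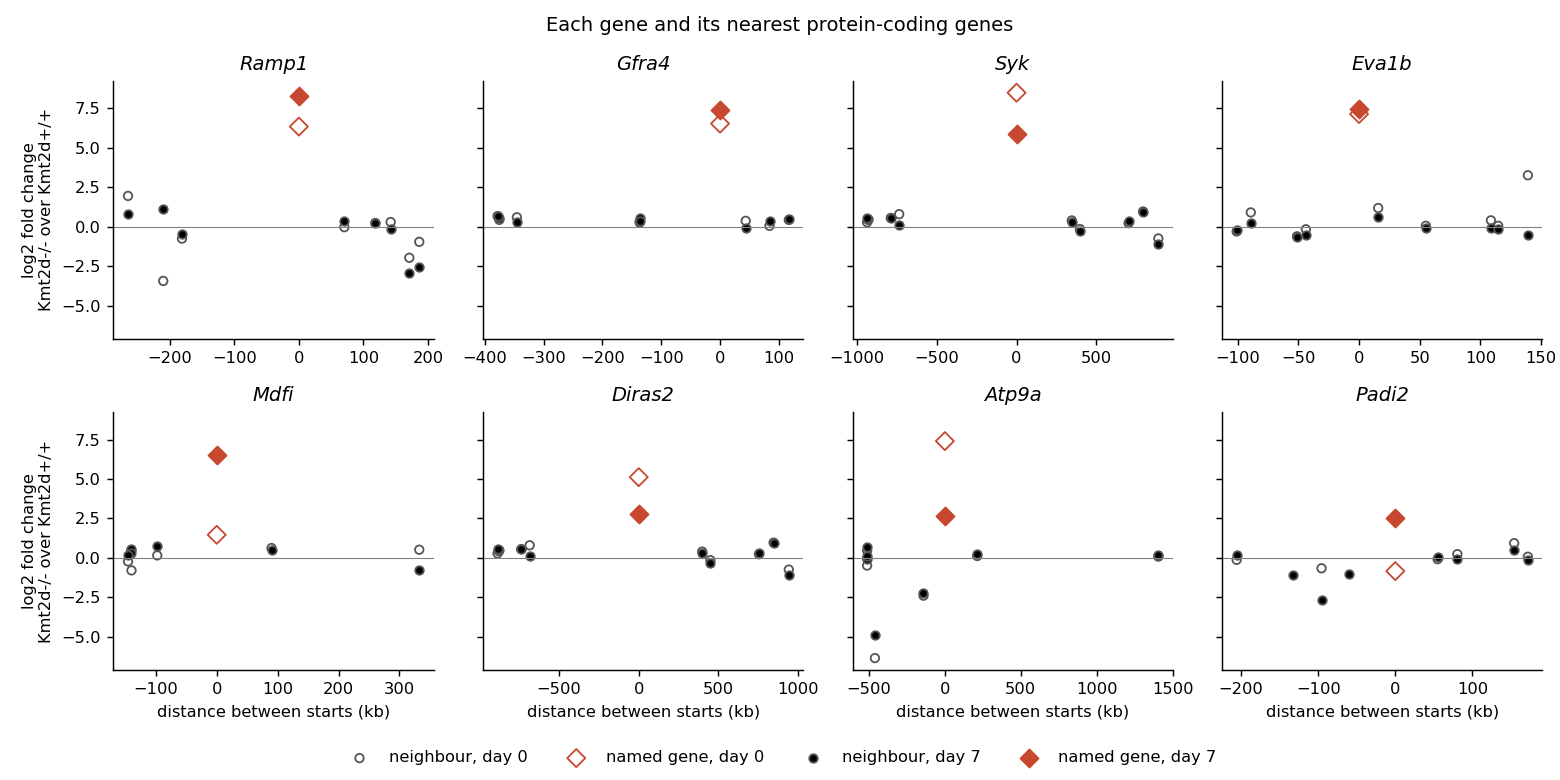
Log2 fold change of Kmt2d-/- over Kmt2d+/+ for each of the 8 genes (red diamonds at 0) and for its tested nearest protein-coding genes (circles), against the distance between gene starts in kb; open symbols are day 0 and filled ones day 7. Diamonds stand above all circles for every gene at both days, except for Padi2 at day 0.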

How the data were processed

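The authors deposited gene-level estimated counts, not normalized, in 20 columns, which are 10 libraries on 2 flow cells each; unmatched columns numbered 0. Of values above 0, 0.351% were whole to within 0.001. The submitters' processing notes name GRCm38, Salmon, DESeq2, edgeR and limma. Their versions, the annotation and any use of strand in counting are not given there, so reads of overlapping genes cannot be told apart.

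The 2 runs of a library were summed and rounded. CPM used library sizes scaled by TMM. edgeR 4.0.16 in R 4.3.3 fitted 4 group means to 10 libraries with its quasi-likelihood F test, 6 residual degrees of freedom, and filterByExpr, which kept 15467 genes. The threshold was an adjusted p of 0.05 (Benjamini-Hochberg, over all tested genes). Standard errors came from the fold change and its F statistic. A gene was on at 1 CPM. Ratios of 2 libraries have exact binomial 95% intervals, which cover counting error only. Shares of tested genes that differed more between the mutant clones, in either direction, used log2(CPM + 0.5), unlike these ratios. Code was tested on simulated data.

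The same clone was sampled at both days, so clones pair the libraries, a pairing that the main fit leaves out. Their deviations from the group means correlated with r = 0.363 to 0.571, and the fit with a clone term has 3 residual degrees of freedom. Alternatives were DESeq2 1.42.0, its size factors, no filter, each run alone, each clone left out, other CPM limits and a 500 kb window.

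Named genes were Kmt2d, the 8 genes, neighbours and family genes that passed, the nearest neighbours, the 3 most similar genes by r, and the 2 most abundant genes of each marker list. The result of 1 marker list is not reported here. Other list genes named in the text were chosen after their values were seen. The 8 genes and all lists were chosen with earlier results of these data known. Symbols and coordinates came from GENCODE vM21 on GRCm38, with 481 identifiers unmatched, and 8 of 8 genes matched the RefSeq promoter table.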

Additional observations from a re-analysis of the deposited data

How the results depend on the processing

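The number of the 8 genes on in both mutant clones stayed within 1.5 times at each day under all alternatives run. The 1 gene that passed over the 7 days in mutant clones became 3 in DESeq2, 2 with no filter, 2 in flow-cell run 1 alone, and 3 with a replicate block for the clone. Leaving out a clone gave 0 to 1, with 0 without wild-type clone 3, mutant clone 1 or mutant clone 2. The 2 that passed in wild-type clones became 1 in run 2 alone and 0 to 2 with a clone left out, and were 2 with the replicate block, which changed no other call. The interaction, 0 in edgeR, was 1 in DESeq2 and 0 to 0 with a clone left out. Among neighbours, the 1 call became 6 in DESeq2 at each day, 0 within 500 kb at each day, 0 in run 2 alone at day 7, 0 to 1 with a clone left out at day 7 and 0 to 3 at day 0. Among family and partner genes at day 7, the 2 calls became 5 in DESeq2, 1 in run 1 alone, 0 in run 2 alone and 0 to 1 with a clone left out. At day 0 the 0 calls became 4 in DESeq2 and 0 to 2 with a clone left out. The 7 genes off in wild-type and on in mutant libraries became 3 under the stricter limits. Each clone left out or run used alone means fewer samples or reads, and otherwise the cause was not tested.

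Of the estimates for single genes under the alternatives, 399 kept their direction and their side of the threshold or spread, 23 moved, 7 newly passed, 31 no longer passed and 4 reversed, each with a clone left out. With a clone left out, the interaction of Ramp1 ran from -0.31 (without wild-type clone 2) to 2.80. Its wild-type counts at day 0 were 0 without that clone, so the counts set no size for the -0.31. The wild-type day effect of Gfra4 ran from -0.43 (without wild-type clone 2) to 0.61. The mutant day effect of Eva1b ran from -0.24 (without mutant clone 2) to 3.35, and the day 0 genotype difference of Mdfi from -0.27 (without mutant clone 1) to 2.23. With 2 mutant clones, what belongs to a clone and what to the genotype cannot be told apart, and of 24 wild-type values at day 0, 10 rested on 3 counts or fewer.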
